A study of Mus musculus with 24 samples.

Results

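The glutathione S-transferase genes of the alpha, mu and pi classes were followed across the livers of mice with and without the major urinary protein (Mup) gene cluster. The 10 members were named by symbol and found through their Ensembl identifiers. They are Gsta2, Gsta3 and Gsta4 of the alpha class, Gstm1, Gstm2, Gstm3, Gstm4, Gstm5 and Gstm6 of the mu class, and Gstp1 of the pi class. All 10 were among the 25746 genes listed and among the 12330 genes that passed the filter on low counts.

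Hepatic RNAseq counts were obtained from 24 mice on the C57/BL6N background, all aged 12 weeks, with 1 library per mouse and 6 mice in each group. The groups were male wild types (mWT), male knockouts (mKO), female wild types (fWT) and female knockouts (fKO). The KO mice lacked the whole Mup cluster in every cell, removed by CRISPR/Cas9, and their line came from a single founder. Effects of the deletion and of variants inherited with it cannot be told apart. Heterozygous parents were intercrossed, and the study pictures a mWT mouse and a mKO littermate. The parents of each mouse sequenced are not given in the sources used here. All mice had a chow diet, a short fast and isoflurane anaesthesia before blood and liver were taken. Mice were kept in groups, but a subset of the study's mice was housed singly for metabolic recording shortly before, and the labels do not tie that subset to the libraries.

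The libraries held 15361901 to 26261394 counts each. The 22 Mup genes together had 70768 to 741314 counts in each WT library and 0 to 11 in each KO library, and the Y-linked Ddx3y had 78.9 to 115 CPM (counts scaled to the size of the library after TMM normalisation) in each male and 0 in each female. No library went against its label. The median correlation of a mouse with the other mice of its group lay between 0.980 and 0.989. Such a correlation rests largely on differences between genes and cannot show that no library stood apart. The liver label fitted its markers, with a summed level of the 5 hepatocyte markers between 86886 and 143017 CPM. In bulk liver, fewer cells of a type and less RNA per cell cannot be told apart.

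Glutathione S-transferases join the thiol of glutathione to reactive electrophiles such as drug epoxides and lipid peroxidation products, which makes them easier to export. The cytosolic enzymes work as dimers of subunits of one class, and liver carries more of them than most tissues. Their genes lie in clusters of recent duplicates, and several respond to the oxidant-sensing factor NRF2 and to xenobiotic receptors. In mouse liver the pi class is known to be more abundant in males.

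All positions are from the GENCODE M21 annotation of GRCm38, the build to which the authors aligned the reads. Gsta3, which conjugates the aflatoxin epoxide in mice, lies alone on chr1:21240589-21265661 on the plus strand. Gsta4, whose enzyme clears hydroxynonenal, is on chr9:78182774-78209349 on the plus strand, and Gsta2 is on chr9:78331018-78355788 on the minus strand, with the non-members Gsta1, Gm3776 and Gm10639 between them. The 6 mu members lie between chr3:107895821 and chr3:108044894, in the order Gstm5, Gstm6, Gstm3, Gstm2, Gstm1 and Gstm4. Gstm5 is on the plus strand and the others are on the minus strand. Gstp1 is on chr19:4035407-4037985 on the minus strand, next to Gstp2, which starts at position 4040285.

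The proteins translated from the annotation had 210 residues for Gstp1, 218 for 5 of the mu members, 224 for Gstm5, 221 for Gsta3 and 222 for Gsta2 and Gsta4. Members of the alpha class shared 59.0 to 69.8% of their residues with each other, mu members 59.8 to 84.4%, and members of different classes 22.6 to 32.4%. The closest pair of members was Gstm1 and Gstm3. Nearer copies lay outside the members, with 97.1% identity between Gstp1 and Gstp2 and 96.4% between Gsta2 and Gm10639.

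These copies bear on what a read can tell. The coding sequences of Gstp1 and Gstp2 differed at 12 of 630 bases, with a longest identical run of 300 bases, whereas those of Gstm1 and Gstm3 differed at 69 of 654. The first 60 coding bases of the pi pair and the last 60 of the mu pair are shown 5′ to 3′ from the GENCODE M21 transcripts (minus strand), with capitals at the bases that differ within the pair.
Gstp1, coding bases 1 to 60: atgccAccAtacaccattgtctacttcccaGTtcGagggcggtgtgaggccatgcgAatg
Gstp2, coding bases 1 to 60: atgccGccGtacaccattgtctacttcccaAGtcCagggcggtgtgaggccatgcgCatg
Gstm1, coding bases 595 to 654: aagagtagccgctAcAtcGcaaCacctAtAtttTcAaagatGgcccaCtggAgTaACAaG
Gstm3, coding bases 595 to 654: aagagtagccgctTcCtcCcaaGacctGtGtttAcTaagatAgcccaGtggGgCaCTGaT

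These stretches were chosen as the 60 coding bases with the most differences in each pair. The stretch of the pi pair held 6 differences and that of the mu pair 16. Over all annotated transcripts, 28.4% of the 100-base windows of Gsta2, as long as the reads, occurred exactly in another gene (Gsta1, Gm10639 or Gm3776). The share was 25.1% for Gstp1 (Gstp2 and the pseudogene Gstp-ps), 13.8% for Gstm3, 5.86% for Gstm1, 1.10% for Gstm6 and 0.357% for Gstm2. It was 0 for Gsta3, Gsta4, Gstm4 and Gstm5. The counts of Gsta2, Gstp1 and Gstm3 are therefore uncertain where reads fell in shared windows. How reads with several matching places were counted is not given in the sources used here. In mWT libraries Gstp2 had 54 to 301 counts beside 5303 to 20471 for Gstp1. Gm10639 had 0 to 2 beside 372 to 847 for Gsta2. Reads from shared windows were thus not all counted for these copies as well. Whether they were dropped or given to the member is not known.

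**Figure D1:**
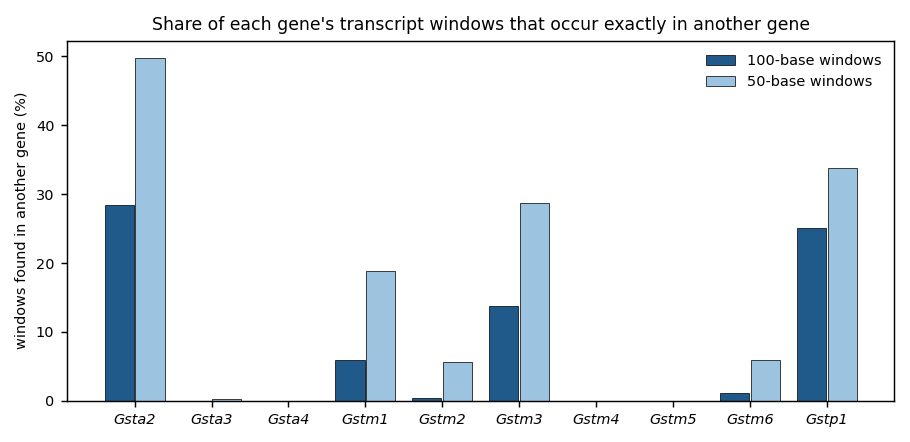
Bars give, for each of the 10 genes, the percentage of its transcript windows that occur exactly in a transcript of another gene, for windows of 100 bases (dark) and of 50 bases (light). Gsta2 and Gstp1 had the highest shares of 100-base windows, 28.4% and 25.1%, and 4 genes had none.

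Sequence around annotated start sites was available for 9 of the 10 members from RefSeq (GRCm38.p6), in windows from 250 bases before to 50 bases after each start site. A core of the antioxidant response element, the letters TGACNNNGC on either strand, occurred in 12.4% of 32851 such windows of all genes, and the STAT5 element TTCNNNGAA in 8.30%. Among the members the antioxidant core was found in Gsta3, at offset −121 from the start site, and in Gstm5, at offset −42, and the STAT5 letters in 1 of the 3 windows of Gstm6, at offset −128. That Gstm6 window, chr3:107943349-107943648, lies within the GENCODE gene (chr3:107938847-107943749) and not upstream of it. The window of Gsta2, chr9:78347096-78347395, lies within its gene as well. The Gstp1 window held neither set of letters as searched. It did hold TGAGTCAGC, which differs from the antioxidant core in the letter after TGA and runs past the end of the part printed. Variants of the core were not searched. A match describes the letters and is not a bound site. The upstream parts of Gsta3 and Gstm5, the members with the antioxidant core (capitals), and of Gstp1, the member with the largest sex difference, read 5′ to 3′ on the gene's strand as follows.
Gsta3, chr1:21240335-21240584, plus strand: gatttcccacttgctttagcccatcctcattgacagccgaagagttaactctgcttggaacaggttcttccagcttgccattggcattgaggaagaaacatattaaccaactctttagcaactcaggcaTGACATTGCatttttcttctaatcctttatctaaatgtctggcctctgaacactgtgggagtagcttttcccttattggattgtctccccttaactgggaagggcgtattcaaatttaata
Gstm5, chr3:107895604-107895820, plus strand: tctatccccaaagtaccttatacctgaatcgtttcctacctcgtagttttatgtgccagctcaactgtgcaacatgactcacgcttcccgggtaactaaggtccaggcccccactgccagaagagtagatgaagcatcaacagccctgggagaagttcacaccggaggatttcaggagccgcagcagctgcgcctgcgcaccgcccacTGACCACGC
Gstp1, chr19:4037986-4038162, minus strand: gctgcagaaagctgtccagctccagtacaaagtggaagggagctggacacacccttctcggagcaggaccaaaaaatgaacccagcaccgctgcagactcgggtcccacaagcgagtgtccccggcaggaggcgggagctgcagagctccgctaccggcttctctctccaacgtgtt

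Levels were first compared between the members, per kilobase of annotated exon. On that scale Gstm1, a major mu enzyme of rodent liver, had the highest level in each group, with 1030 ± 90.8 CPM per kilobase in mWT, 1232 ± 167 in mKO, 997 ± 77.8 in fWT and 996 ± 114 in fKO (SD, n = 6). It exceeded the next gene in all 6 mice of each group. This order rests on the merged exon lengths, 4344 bases for Gsta3 and 1473 for Gstm1. In CPM not divided by length, Gsta3 was the higher, with 1824 ± 137 CPM against 1517 ± 134 in mWT, and lay above Gstm1 in 6 of 6 mWT, 5 of 6 mKO, 4 of 6 fWT and 5 of 6 fKO mice. In mWT mice Gstp1 (451 ± 151 CPM per kilobase) and Gsta3 (420 ± 31.5) followed, and their order differed among mice, with Gstp1 above Gsta3 in 4 of 6. In mKO mice Gsta3 (489 ± 26.8) was above Gstp1 (404 ± 54.4) in 5 of 6 mice. Their nearness also rests on exon length, which is 1548 bases for Gstp1. In CPM not divided by length, Gsta3 lay far above Gstp1 in mWT mice, at 1678 to 2073 against 331 to 1033 CPM.

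In females Gsta3 came second, with 359 ± 38.1 CPM per kilobase in fWT and 392 ± 65.0 in fKO mice, and lay above the gene after it in all 6 mice of both groups. Gstp1 was at 51.8 ± 8.97 CPM per kilobase in fWT and 56.8 ± 7.37 in fKO, near the level of several mu members and far under Gsta3. There Gstp1, Gstm3 and Gstm6 could not be ordered, since in fWT each was above the next in only 3 of 6 mice.

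The remaining members lay lower. In mWT mice the levels per kilobase of Gstm3, Gstm6, Gstm4, Gsta4, Gstm2 and Gsta2 ran from 57.3 ± 8.01 down to 26.9 ± 9.48 CPM per kilobase. Gstm4 was above Gsta4, and Gsta4 above Gstm2, in only 3 of 6 mice, so these neighbours did not differ beyond their spread. Gstm5, an enzyme better known from brain and testis, was last in each group, with 5.99 ± 0.713 (mKO) to 7.86 ± 1.16 (fKO) CPM per kilobase.

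Summed by class, the mu members carried 56.9 ± 6.04% of the members' summed level per kilobase in mWT and 59.9 ± 3.16% in mKO mice, against 71.5 ± 1.15% in fWT and 70.0 ± 2.31% in fKO (SD, n = 6). The lower share in males did not go with a lower mu sum. That sum was 1231 ± 106 CPM per kilobase in mWT, 1478 ± 213 in mKO, 1193 ± 93.7 in fWT and 1185 ± 135 in fKO mice. The single pi gene carried 20.7 ± 6.74% and 16.6 ± 2.65% in the males and 3.11 ± 0.463% and 3.37 ± 0.423% in the females. The alpha share lay between 22.4 ± 1.68% (mWT) and 26.6 ± 2.69% (fKO). The lowest male pi share (10.5%) lay above the highest female one (3.88%). In CPM not divided by length, the alpha and mu shares lay closer, with 42.8 ± 2.12% alpha and 41.6 ± 4.13% mu in mWT, 44.1 ± 1.62% and 43.6 ± 2.92% in mKO, and 46.7 ± 1.63% and 51.1 ± 1.37% in fWT mice. In fKO mice the alpha share was 44.3 to 52.7% and the mu share 45.2 to 52.8%. The pi share on that scale was 15.7 ± 5.27% in mWT, 12.4 ± 1.86% in mKO, 2.29 ± 0.366% in fWT and 2.43 ± 0.366% in fKO mice, with males again above females.

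Summed without regard to length, the 10 members took 4453 ± 185 CPM in mWT, 5076 ± 433 in mKO, 3512 ± 295 in fWT and 3647 ± 470 in fKO mice (SD, n = 6). Spread within a group differed by gene. The coefficient of variation was lowest for Gsta3 in mKO (5.48%) and highest for Gsta2 in fKO (60.8%), where the 6 mice ranged from 7.55 to 55.6 CPM.

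**Figure D2:**
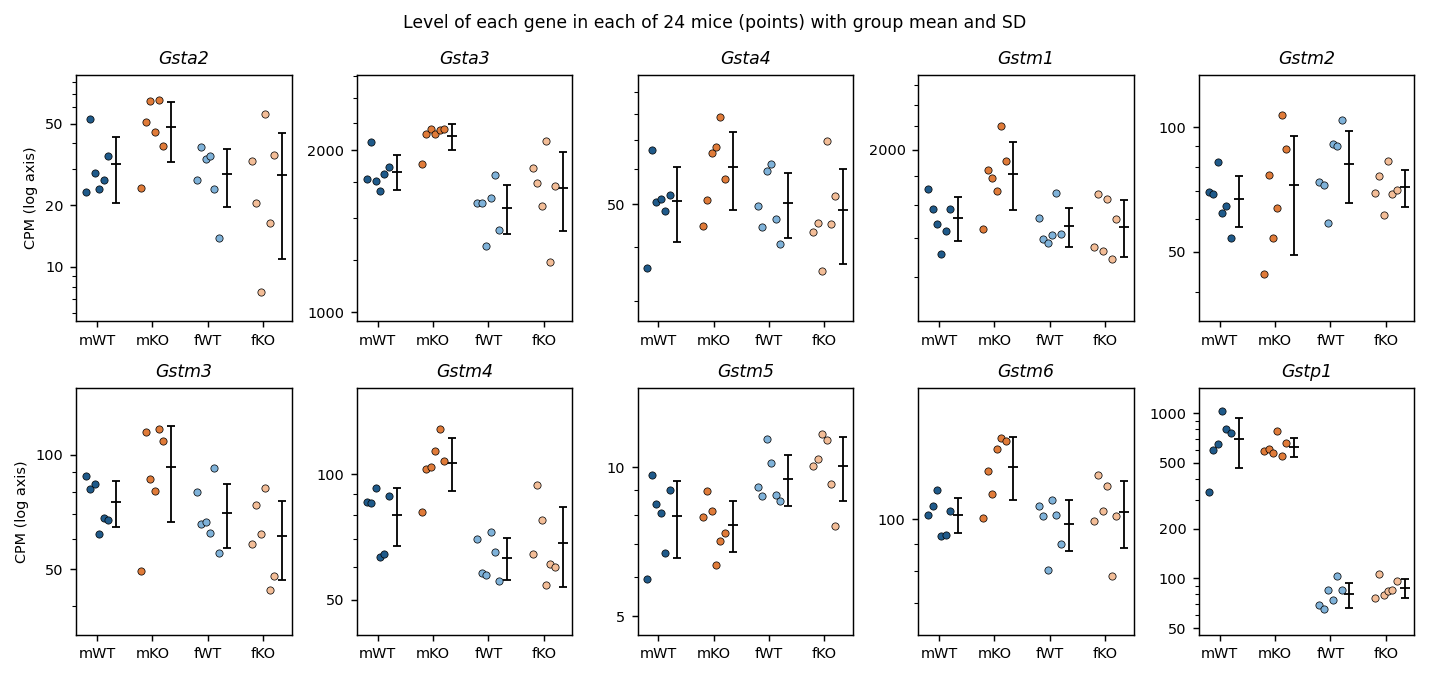
Each panel shows 1 gene, with CPM on a log axis against the 4 groups. Points are the 24 mice in order of their number, and bars are group means with SD. Gstp1 was at 331 to 1033 CPM in males and 65.4 to 107 CPM in females. For the other genes, groups that shared a sex or a genotype overlapped.

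The comparison of mKO with mWT asked whether loss of the cluster was accompanied by changes in these enzymes in males. No member passed an adjusted p of 0.05 in the quasi-likelihood test of edgeR, adjusted over all tested genes by Benjamini and Hochberg's method (0.211% of all tested genes did). At the unadjusted p of 0.01 used in the study, 3 members passed, each higher in mKO, where 3.52% of all tested genes passed and 1.8% did so with a higher level. They were Gstm4, Gstm6 and Gstm1 of the mu cluster, where Gstm1 and Gstm4 are adjacent and Gstm3 and Gstm2, which did not pass, lie between Gstm6 and Gstm1. The log2 difference was above 0 for 8 of 10 members, with a median of 0.26 against −0.0021 over all tested genes. No member's groups were fully separate, as they were for 1.09% of all tested genes.

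Gstm4 ranged from 63.3 to 92.7 CPM (median 85.6) in mWT and from 81.4 to 129 CPM (median 106) in mKO mice. Of the mKO mice 5 lay above each mWT mouse, and the groups overlapped through mKO mouse 1. The log2 difference was 0.41 (standard error 0.13, 95% interval 0.15 to 0.67, unadjusted p of 0.00305, adjusted p = 0.191 by edgeR). No 100-base window of Gstm4 is shared with another gene.

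Gstm6 ranged from 93.0 to 113 CPM (median 103) in mWT and from 100 to 141 CPM (median 129) in mKO mice. Here 4 of 6 mKO mice lay above each mWT mouse. Its log2 difference was 0.30 (standard error 0.10, 95% interval 0.10 to 0.50, unadjusted p of 0.00484, adjusted p = 0.217 by edgeR).

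Gstm1 ranged from 1316 to 1705 CPM (median 1531) in mWT and from 1454 to 2197 CPM (median 1816) in mKO mice, where mKO mouse 5 was highest. Again 4 of 6 mKO mice exceeded each mWT mouse. The log2 difference was 0.26 (standard error 0.09, 95% interval 0.07 to 0.44, unadjusted p of 0.00824, adjusted p = 0.269 by edgeR).

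Whether these genes passed the unadjusted p of 0.01 rested on single mice. Without mWT mouse 4, mWT mouse 5 or mKO mouse 5, 0 members reached it, and without mKO mouse 6 only Gstm4 did. Without mKO mouse 1, Gstm3 joined the 3 genes. In a fit of the male mice on their own, Gsta3 passed in place of Gstm1. The log2 difference of Gstm4 stayed between 0.35 and 0.48 whichever mouse was left out.

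Of the alpha members, Gsta3 ranged from 1678 to 2073 CPM (median 1787) in mWT and from 1889 to 2189 CPM (median 2165) in mKO mice. In 5 of 6 mKO mice it was above each mWT mouse, and the log2 difference was 0.22 (standard error 0.09, adjusted p = 0.387 by edgeR). Gsta2 had the largest point value, 0.60, with the widest 95% interval, −0.15 to 1.35 (adjusted p = 0.599). Its mice ranged from 23.2 to 52.7 CPM (median 27.5) in mWT and from 24.2 to 64.8 CPM (median 48.1) in mKO, and 2 mKO mice lay above each mWT mouse.

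Gsta4 ranged from 35.8 to 66.4 CPM (median 51.0) in mWT and from 44.5 to 78.9 CPM (median 61.1) in mKO mice. Gstm3 ranged from 62.0 to 87.9 CPM (median 74.8) and from 49.4 to 117 CPM (median 97.7), and Gstm2 from 53.9 to 82.5 CPM (median 66.7) and from 44.2 to 107 CPM (median 70.1). For Gstm3 and Gstm2 the mKO mice lay both above and below the whole range of the mWT mice. Their log2 differences of 0.26, 0.30 and 0.11 had 95% intervals that included 0, with adjusted p from 0.588 to 0.889 by edgeR.

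Gstm5 (−0.06) and Gstp1 (−0.16) had the only point values under 0. Gstm5 was at 5.94 to 9.65 CPM (median 8.26) in mWT and 6.35 to 8.97 CPM (median 7.66) in mKO mice. Gstp1 ranged from 331 to 1033 CPM in mWT, with mouse 1 lowest and mouse 4 highest, and from 547 to 778 CPM in mKO mice. Without mWT mouse 1 its log2 difference was −0.30 (adjusted p = 0.341 by edgeR). Summing Gstp1 with Gstp2 left the difference between mKO and mWT at −0.16, and summing Gsta2 with its 3 copies gave 0.59.

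**Figure D3:**
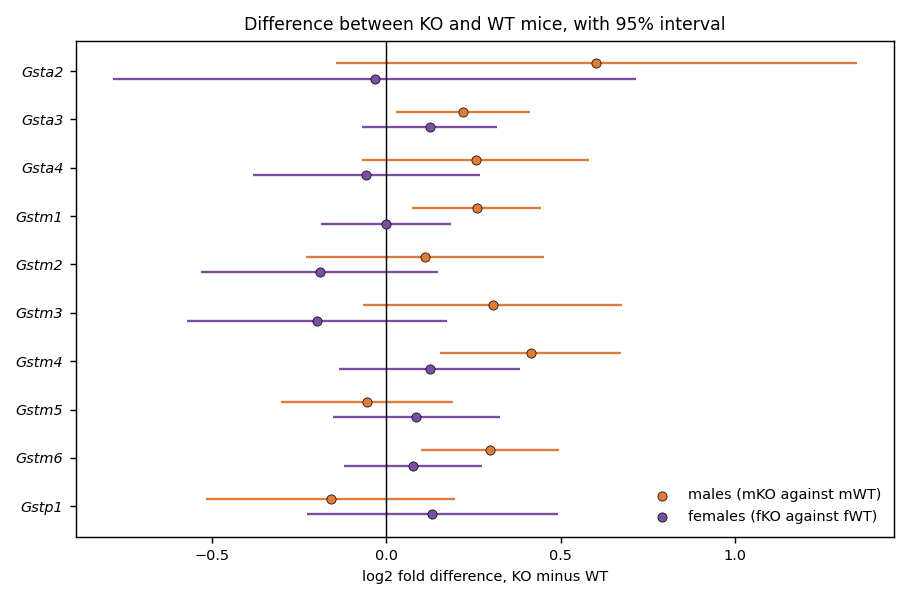
Points are log2 fold differences between KO and WT mice for the 10 genes in males (orange) and females (purple), and lines are 95% intervals of the edgeR fit. The male intervals of Gsta3, Gstm1, Gstm4 and Gstm6 lay above 0, and each of the 10 female intervals included 0.

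Within the mKO group, the mice differed along several members at once. Mouse 1 was the lowest of the 6 for 8 members (Gsta2, Gsta3, Gsta4, Gstm1, Gstm2, Gstm3, Gstm4 and Gstm6), with a median log2 deviation of −0.37 from the group median over the 10 genes. Mouse 5 was the highest for 7 members, with a median deviation of 0.27, and was the lowest for Gstp1. Gstm3 was at 49.4 CPM in mouse 1 and 117 in mouse 5, and Gstm2 at 44.2 and 107. In the mWT group no mouse was lowest for more than 5 members or highest for more than 4.

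The same mKO mouse 1 also had the highest summed level of the 5 Kupffer cell markers, 176 CPM, where the other 5 mKO mice had 63.4 to 89.1 CPM and the mWT mice 65.7 to 131. All 5 of these markers were detected. The mouse was also the highest of the mKO group for the summed cholangiocyte (47.0 CPM), endothelial (138 CPM) and T and B cell markers (1.79 CPM). It was not the highest for the stellate cell or erythroid markers. Its summed level of the other glutathione transferase genes was the highest too, at 5954 CPM against 5323 to 5825 CPM in the other 5 mKO mice. The part of these cells in the low values of this mouse was not tested. Its library was the deepest of the mKO group, with 24684788 counts, and that of mouse 5 the shallowest of all 24, with 15361901.

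**Figure D4:**
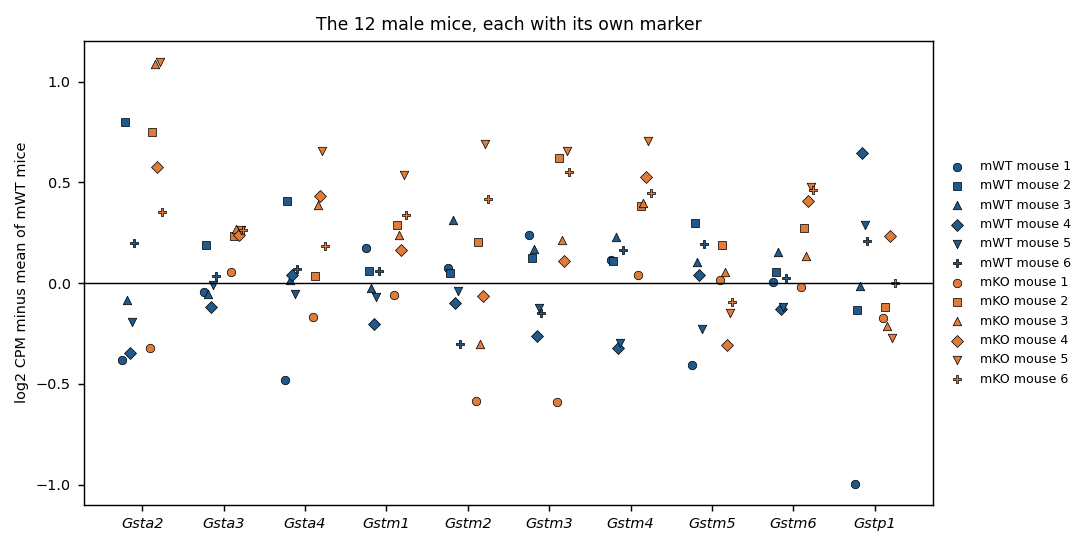
The log2 CPM of each of the 12 male mice minus the mean of the mWT mice is plotted for each gene, with blue for mWT, orange for mKO and 1 marker shape per mouse number. The orange circle (mKO mouse 1) was the lowest mKO point in 8 genes, and the orange inverted triangle (mKO mouse 5) was the highest in 7.

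In females, fKO and fWT mice were compared in the same fit. No member passed the adjusted p of 0.05 (0.0892% of all tested genes did) and none the unadjusted p of 0.01 (0.876% did). The smallest unadjusted p was 0.199, for Gsta3. Log2 differences lay between −0.20 (Gstm3) and 0.13 (Gstp1), with 5 members above and 5 below 0. The groups of each of the 10 genes overlapped, as they did in males, whereas those of 0.349% of all tested genes did not.

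Gstm1 ranged from 1373 to 1680 CPM (median 1422) in fWT and from 1287 to 1675 CPM (median 1435) in fKO mice, and the 95% interval of its log2 difference ran from −0.19 to 0.18. Gstm4 ranged from 55.3 to 72.6 CPM in fWT and from 54.3 to 94.4 CPM in fKO, with an interval of −0.14 to 0.38. That of Gstm6 ran from −0.12 to 0.27. The upper bounds of Gstm4 and Gstm6 lay just under the differences of 0.41 and 0.30 estimated in males.

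The other members in females were spread as widely. Gsta3 ranged from 1329 to 1799 CPM (median 1596) in fWT and from 1237 to 2080 CPM (median 1730) in fKO mice, with the wider spread in fKO. Gstm6 ranged from 80.3 to 108 CPM (median 101) and from 78.6 to 120 CPM (median 103). These medians differed by less than the spread within either group.

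Gstm3 had a mean of 70.4 ± 13.4 CPM in fWT (55.3 to 92.2) and 61.3 ± 14.5 CPM in fKO mice (44.3 to 81.6) (SD, n = 6). Gstm2 had a median of 82.0 CPM in fWT (58.8 to 104) and 69.9 CPM in fKO mice (61.4 to 83.1). Both were lower in fKO by point value, −0.20 and −0.19 on the log2 scale, where both were higher in mKO than in mWT, and neither difference passed in either sex.

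Gsta4 had a median of 47.8 CPM in fWT (40.6 to 61.7) and 45.1 CPM in fKO mice (35.2 to 69.7), and Gsta2 had 30.1 CPM (13.9 to 38.5) and 26.6 CPM (7.55 to 55.6). Gstm5 had 8.96 CPM (8.54 to 11.4) and 10.2 CPM (7.60 to 11.7). Of the fKO mice, mouse 4 was the highest for 5 members, Gsta2, Gsta3, Gsta4, Gstm2 and Gstm3, and was the lowest for Gstm4.

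Whether the effect of genotype differed between the sexes was tested as an interaction. No member passed the adjusted p of 0.05 (0.00811% of all tested genes did) or the unadjusted p of 0.01 (1.16% did). The smallest p belonged to Gstm1, with an interaction of 0.26 on the log2 scale (95% interval −0.0023 to 0.52, unadjusted p of 0.0519, adjusted p = 0.832 by edgeR), and Gstm3, with 0.50 (−0.02 to 1.03, unadjusted p of 0.0596, adjusted p = 0.838). Without mKO mouse 1, Gstm3 passed the unadjusted p of 0.01 and 0 members passed the adjusted one. The interactions of Gstm4 and Gstm6 were 0.29 (unadjusted p of 0.117, adjusted p = 0.880 by edgeR) and 0.22 (unadjusted p of 0.115, adjusted p = 0.880). A difference in males beside none in females was thus not shown to be a difference between the sexes.

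The largest sex difference among the members was that of Gstp1. The values in mWT and fWT mice were 331 to 1033 (median 708) and 65.4 to 103 CPM (median 79.5), and the groups did not overlap (nor did those of 7.7% of all tested genes). The log2 difference was 3.12 (standard error 0.19, 95% interval 2.73 to 3.51, adjusted p = 6.86e-12 by edgeR), an 8.70-fold higher level in males. Between mKO (547 to 778 CPM, median 597) and fKO mice (76.1 to 107 CPM, median 84.5) the groups did not overlap either (7.26% of all tested genes did not), with a log2 difference of 2.83 (standard error 0.19, 95% interval 2.45 to 3.21, adjusted p = 4.62e-11), a 7.11-fold higher level in males. The interaction of −0.29 for Gstp1 had a 95% interval of −0.80 to 0.21 (adjusted p = 0.910).

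With Gstp2 added to Gstp1, the sex difference remained 3.12 in WT and 2.84 in KO on the log2 scale. Gstp2 itself, a near copy at 6.75 ± 4.31 CPM in mWT and 0.581 ± 0.209 CPM in fWT mice (SD, n = 6), differed by 3.54 in WT and 3.64 in KO (adjusted p = 9.1e-08 and 1.01e-07 by edgeR). Since 46.9% of its 100-base windows are shared with Gstp1 or Gstp-ps, its counts are uncertain. Gstp3, the next pi gene along the chromosome and named after its values were seen, went the other way in WT, with 9.38 ± 1.37 CPM in mWT and 13.1 ± 2.01 CPM in fWT (log2 difference −0.49, adjusted p = 0.00642).

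In WT mice Gstp1 was the only member past the adjusted p of 0.05, where 17.3% of all tested genes passed. Gstm4 (63.3 to 92.7 CPM in mWT, 55.3 to 72.6 CPM in fWT) came next, with a log2 difference of 0.35 (95% interval 0.09 to 0.61, adjusted p = 0.0595 by edgeR). It passed with DESeq2 and with the WT mice fitted on their own, 2 of 12 alternative fits, and in 6 of 24 fits that left out 1 mouse, with adjusted p from 0.0309 to 0.133. At the unadjusted p of 0.01 Gstp1 was again the only member, where 18.2% of all tested genes passed. Gsta3 was higher in males by 0.22 and Gstm5 lower by −0.25, with adjusted p of 0.101 and 0.154.

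In KO mice 6 members passed the adjusted p of 0.05, where 14.4% of all tested genes did (7.26% higher and 7.13% lower in males). Gsta3 (log2 difference 0.32, adjusted p = 0.0212), Gstm1 (0.31, 0.0217), Gstm3 (0.60, 0.0271), Gstm4 (0.64, 0.000848) and Gstp1 were higher in mKO than in fKO mice, and Gstm5 was lower (−0.39, 0.0255). Gstm6 (0.28, adjusted p = 0.0529) passed the unadjusted p of 0.01, as 15.9% of all tested genes did, and passed the adjusted p of 0.05 with DESeq2, which called 7 members. The interaction of none of these genes passed, so the larger number in KO than in WT mice is no test of a difference between genotypes. The WT and KO comparisons share no mice.

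Apart from Gstp1, Gstm4 had the largest of these log2 differences, with 81.4 to 129 CPM in mKO and 54.3 to 94.4 CPM in fKO mice. Only fKO mouse 2, at 94.4 CPM, lay above the lowest male. Gsta3 overlapped as little, with fKO mouse 4, at 2080 CPM, alone above the lowest male at 1889 CPM. Gstm5, at 6.35 to 8.97 CPM in mKO and 7.60 to 11.7 CPM in fKO mice, ran opposite to its neighbours in the cluster, with 3 of 6 males below each female. Gstm5 had 95 to 275 counts per library, the fewest of the members.

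The calls in KO mice depended on single animals. Without mKO mouse 5, 3 members passed the adjusted p of 0.05 (Gsta3, Gstm4 and Gstp1), and without fKO mouse 5 it was Gstm4, Gstm5 and Gstp1. Without fKO mouse 4, 8 members passed. With the KO mice fitted on their own, 3 members passed as well (Gstm4, Gstm5 and Gstp1). Gstp1 and Gstm4 passed in each of these fits. The share of all tested genes that passed in them is not given here. A change particular to the members therefore cannot be told from a general one.

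**Figure D5:**
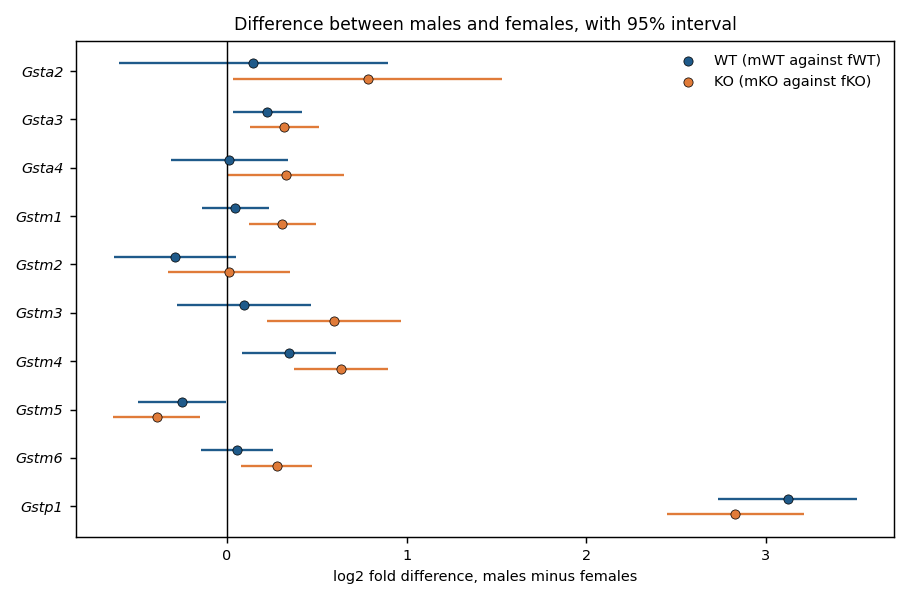
Points are log2 fold differences between males and females for the 10 genes, in WT (blue) and KO mice (orange), and lines are 95% intervals of the edgeR fit. Gstp1 stood at 3.12 and 2.83, and the other genes lay between −0.39 and 0.78.

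Some markers of other cells differed with sex. The summed level of the 5 erythroid markers was 149 to 214 CPM in mWT and 155 to 260 CPM in mKO mice, against 40.5 to 67.8 CPM in fWT and 41.2 to 60.5 CPM in fKO, and all 5 markers were detected. Of these, 1 passed the adjusted p of 0.05 in WT mice and 5 in KO mice, each higher in males. The median log2 difference of the 5 markers was 0.44 in WT and 1.14 in KO, so the sum did not speak for all of them alike. Alas2, the erythroid enzyme of heme synthesis, was higher in males by 3.44 in WT and 3.15 in KO on the log2 scale. In WT mice the Kupffer cell sum was mostly lower in males, at 65.7 to 131 CPM in mWT against 118 to 219 CPM in fWT. In KO mice it overlapped widely, at 63.4 to 176 CPM in mKO and 98.0 to 178 CPM in fKO. There 0 of the 5 markers passed the adjusted p of 0.05. Pericentral hepatocyte markers were lower in males for 4 of 8 genes in WT and 3 of 8 in KO mice, and of 7 periportal markers in WT Cyp2f2 was higher in males by 0.70 and Ctsc lower by −1.36. The part of these cells and zones in the sex differences was not tested.

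None of these marker lists held a gene past the adjusted p of 0.05 in the comparison of mKO with mWT. The summed pericentral markers were at 8458 to 12515 CPM in mWT and 9762 to 12194 CPM in mKO mice, and the periportal ones at 5285 to 8068 and 5224 to 7525 CPM. Of these marker lists only that of hepatocytes held a gene at the unadjusted p of 0.01, Ttr, the thyroxine carrier transthyretin (0.30, adjusted p = 0.212 by edgeR).

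The other glutathione transferase genes were taken from a list of 22, of which 20 were listed in the files and 14 tested. In males, 0 passed the adjusted p of 0.05 between mKO and mWT, and 1 the unadjusted p of 0.01. It was Mgst3, a membrane-bound transferase and peroxidase, with 7.42 ± 1.38 CPM in mWT and 11.4 ± 3.33 CPM in mKO mice (SD, n = 6, log2 difference 0.62, adjusted p = 0.163 by edgeR). The median difference of the list was 0.19. In females 0 passed either threshold.

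For the interaction, Mgst3 (0.85) and Gstp3 (0.53) passed the unadjusted p of 0.01, with an adjusted p of 0.816 for both. Gstm7, the mu gene of the cluster that is no member, was at 49.6 ± 5.35 CPM in mWT, 58.7 ± 8.29 CPM in mKO, 54.5 ± 9.26 CPM in fWT and 53.8 ± 7.91 CPM in fKO mice. Its difference between mKO and mWT was 0.24 (adjusted p = 0.447).

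Between the sexes in WT mice, 3 of these 14 genes were higher in males and 6 lower at the adjusted p of 0.05. Those with the smallest p were Gstp2 (3.54) and the microsomal Mgst1 (0.49), which were higher in males, and Mgst3 (−1.10) and the theta gene Gstt3 (−1.34), which were lower. In KO mice 3 were higher and 2 lower. Gsta1, named as the near copy of Gsta2 after its values were seen, was higher in WT males by 2.33. It had 1 to 49 counts per library and shares 80.6% of its windows with near copies, among them Gsta2, whose own sex difference was 0.15 in WT (adjusted p = 0.828) and 0.78 in KO (adjusted p = 0.156).

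Genes that make, recycle or remove glutathione and its conjugates formed a list of 29, of which 26 were tested. Between mKO and mWT, 0 passed the adjusted p of 0.05 and 3 the unadjusted p of 0.01, each higher in mKO. They were Lap3, a leucine aminopeptidase (0.26, adjusted p = 0.119 by edgeR), Gclc, the catalytic subunit of glutamate-cysteine ligase (0.51, 0.217), and Gsr, which reduces oxidised glutathione (0.25, 0.247). Gclc was at 226 ± 48.9 CPM in mWT and 322 ± 56.4 CPM in mKO mice (SD, n = 6). The median difference of the list was 0.02.

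Of 24 tested genes among NRF2 regulators and classical targets, 3 passed the unadjusted p of 0.01 between mKO and mWT, Gclc and Gsr among them. The other was Srxn1, which repairs oxidised peroxiredoxin, with 0.32 and an adjusted p of 0.0936 by edgeR, and 0 genes passed the adjusted p of 0.05. The median difference of the list was 0.08, and in females 0 genes of either list passed the unadjusted p of 0.01.

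Of 17 genes for the receptors CAR, PXR, AHR and PPARalpha and their marker targets, 2 passed the unadjusted p of 0.01 between mKO and mWT. Both were fatty acid hydroxylases, Cyp4a14 (log2 difference 2.85, standard error 0.78, adjusted p = 0.152 by edgeR) and Cyp4a10 (1.45, standard error 0.42, adjusted p = 0.173), and the median difference of the list was 0.35. In the list of growth hormone signalling and sex-biased liver genes, 1 of 19 passed in males, Elovl3 (1.45, adjusted p = 0.143), and 1 in females, Cyp2d9 (0.71, adjusted p = 0.929).

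The same lists were read between the sexes in WT mice at the adjusted p of 0.05. Of the glutathione handling genes 4 were higher in males and 2 lower, led by Nat8, which acetylates cysteine conjugates (5.02 on the log2 scale). Of the NRF2 list 5 were higher and 2 lower, with Nqo1, a quinone reductase, lower by −1.03. Of the receptor list 0 were higher and 7 lower, and of the growth hormone list 6 were higher and 7 lower.

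Genes whose log2 levels followed each member most closely over the 24 mice were found by the root mean square difference of centred log2 CPM, outside the transferase families. Cyp7b1, an oxysterol hydroxylase, came closest to Gstp1 at 0.33, followed by Alas2 at 0.36, where Gstp1 itself varied by 1.5 around its mean. Nipsnap1 came closest to both Gstm1 (0.11, own variation 0.19) and Gstm6 (0.12, own variation 0.21). Mocos came closest to Gstm4 (0.17, own variation 0.36), Ndufb9 to Gsta3 (0.11, own variation 0.22) and Aldh1a1 to Gsta2 (0.50, own variation 0.70). The points share groups and libraries, so the measure is a description.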

How the data were processed

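The authors made stranded mRNA libraries from snap frozen liver, sequenced 100-base single-end reads in 1 multiplexed pool, and processed them with bcl2fastq 2.19, fastp 0.20 and STAR 2.7a on GRCm38.p6, per the submitters' processing notes, and featureCounts of Rsubread. The deposited values are raw counts per Ensembl gene, without scaling or filter. The annotation release, strand setting and counting of reads with several matching places are not given in the sources used here. Of 25746 genes, 25712 matched GENCODE M21.

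edgeR 4.0.16 in R 4.3.3 was used on these counts. A gene was tested when 6 or more of the 24 libraries reached 0.66 CPM, TMM scaling was applied, and a robust quasi-likelihood model with 1 mean per group was fitted to all libraries. Fold changes are log2, and p-values were adjusted by the Benjamini-Hochberg method over 12330 genes. The study's unadjusted p of 0.01 stands beside an adjusted p of 0.05. The procedure was tested on simulated counts. At the depths found, 3 counts correspond to 0.195 CPM at most, and floors cover counting error only. No pair of libraries within a group was as alike as sampling noise allows (lowest chi-square per gene 7.67). How the mice of a group were related is not given in the sources used here. The p-values set each difference against the spread between these mice and treat the mice as independent.

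All 10 members were named, and other lists were given by counts and by up to 4 genes with the smallest p per list. Closest genes were the 2 with the smallest root mean square difference. The members and lists were chosen with earlier results of these data known. Levels per kilobase used the merged exons of GENCODE M21, and proteins were aligned with Biopython 1.88. Alternatives were DESeq2 1.42.0, its size factors, upper quartile scaling, other filters, non-robust dispersions, each pair of groups fitted on its own, Mup genes removed, near copies (at least 90% protein identity) summed, the mouse number as a block, and each mouse left out. The edgeR 4 deviances, the block for sex differences and class shares not divided by length were chosen after seeing the data.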

Additional observations from a re-analysis of the deposited data

Results flagged for a closer look

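In the comparison of each mouse with the rest of its group, over 40 sets of 6 mice (10 genes in 4 groups), 1 value stood apart by Dixon's criterion. Gsta3 in mKO mouse 1 was at 1889 CPM, where the nearest of the other 5 mKO mice was at 2142 CPM, and the gap took 0.846 of the range of the group. Values just past the criterion or beyond it arise by chance in about 1 of 20 independent sets, and these sets share their mice. The same mouse was the lowest of its group for 8 of the 10 genes. Without it, the log2 difference of Gsta3 between mKO and mWT was 0.25 (adjusted p = 0.372 by edgeR), against 0.22 with it. Neither depth nor cell composition was tested as a source of the low value.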

How the results depend on the processing

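The results were recomputed under 12 alternative settings (the interaction under 11) and without each of the 24 mice. No member passed the adjusted p of 0.05 for KO against WT in either sex, or for the interaction, under any of them, and Gstp1 passed for both sex differences under all of them. Of the other settings, the mouse number as a replicate block moved the count of members at the unadjusted p of 0.01 in males from 3 to 0, with unadjusted p of 0.0259 for Gstm1, 0.0140 for Gstm4 and 0.0115 for Gstm6. The numbers name different mice and were not treated as pairs. Correlations of same-numbered mice ran from −0.34 to 0.17, and at most 2 of 12 mice of a pair of groups were closest to their own number. Such correlations cannot show whether mice with the same number shared a litter, cage or batch. A block within genotype left 6 and 5 members for the sex difference in KO at the unadjusted p of 0.01 and the adjusted p of 0.05.

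For the sex difference in WT, the count at the unadjusted p of 0.01 was 2 (Gstm4 added) with DESeq2 size factors in edgeR, with no filter, with WT fitted on its own and with DESeq2, and at the adjusted p of 0.05 it was 2 under the last 2 of these. For the sex difference in KO, the count at the adjusted p of 0.05 was 3 with KO fitted on its own and 7 with DESeq2 (Gstm6 added). Leaving out 1 mouse gave 0 to 4 members in males and 0 to 1 for the interaction at the unadjusted p of 0.01, 1 to 2 for the sex difference in WT at either threshold, and 4 to 9 (unadjusted) and 3 to 8 (adjusted) for that in KO. For the sex difference in WT, Gstm4 joined at the adjusted p of 0.05 without mWT mouse 4, mWT mouse 5, mKO mouse 1, fWT mouse 4, fKO mouse 2 or fKO mouse 4. Shares of all tested genes are given for the main fit only, so these counts have none beside them.

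Values near 0 changed sign. Gstm1 in females was 0.0051 with DESeq2 size factors, 0.0011 with no filter, 0.00019 with the filter in at least 2 libraries, 0.0027 with filterByExpr, 0.00060 without Mup genes and 0.0052 with DESeq2. With upper quartile scaling Gsta4 and Gstm1 became −0.041 and −0.0048 for the sex difference in WT and Gstm2 −0.0078 for that in KO, where the block gave −0.042. Leaving out 1 mouse, differences between KO and WT ran from −0.035 to 0.22 for Gstm2 and −0.13 to 0.0063 for Gstm5 in males, and from −0.35 to 0.16 for Gsta2, −0.19 to 0.019 for Gsta4 and −0.041 to 0.041 for Gstm1 in females. Sex differences ran from −0.059 to 0.25 for Gsta2 and −0.077 to 0.096 for Gsta4 in WT, and from −0.13 to 0.12 for Gstm2 in KO. The cause was not tested. DESeq2 gave no adjusted p for Gstm5 in males, which was left out. Depth limits Gstm5 most, at 95 to 275 counts per library.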
